A study of Saccharomyces cerevisiae with 16 samples.

Results

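The genes described here encode the proteins of the yeast cytosolic ribosome. They were taken as every probe whose standard symbol is RPL or RPS with a number and an optional A or B, or RPP0, RPP1A, RPP1B, RPP2A or RPP2B. The rule found 137 of the 6256 gene probes of the array, 56 for proteins of the 40S subunit (RPS) and 81 for proteins of the 60S subunit (RPL and the RPP stalk proteins). They form 59 pairs of an A and a B copy, 24 of the 40S and 35 of the 60S, and 19 members have a single copy. All 137 were well above background on all 16 arrays, so none was lost to the filter on dim probes, which left 6184 probes to test.

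Total RNA of Saccharomyces cerevisiae, the industrial wine strain Lalvin EC1118, was labelled with Cy3 and hybridised to Agilent one-colour arrays. In mixed fermentations this strain shared a membrane reactor of artificial wine must with the spoilage yeast Dekkera bruxellensis ZIM 701, which grew on the far side of a dialysis membrane. In control fermentations EC1118 was inoculated alone and the far side stayed sterile. Cells were taken in exponential growth (22 h), in the early (92 h) and late (144 h) stationary phases and in decline (187 h), from duplicate fermentations, so that each of the 8 groups of kind and time holds 2 arrays. The membrane let the yeasts share medium, and every array reports RNA of the EC1118 side only, of 1 strain.

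A ribosome is built of 4 rRNAs and a fixed set of proteins that are needed in about equal numbers, and their genes are among the most strongly transcribed of a growing yeast cell. In yeast most of these genes survive as pairs from an ancient genome duplication, and the A and B copies encode identical or nearly identical proteins. As a group they are known to be transcribed with growth, through Rap1, Fhl1, Ifh1 and Sfp1 under the TOR and protein kinase A pathways, and to be shut down when nutrients run out.

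Levels below are log2 signals minus the array's own 75th percentile, so 0 is that percentile. A probe's level also depends on its own sequence, so levels are compared between arrays and never between probes. Differences are log2 differences with their standard error, and a probe was called where limma's Benjamini-Hochberg adjusted p over all 6184 probes was under 0.05. The 75th percentile takes up any change in the total, and fewer cells of a kind or less mRNA per cell cannot be told apart here. Same-numbered arrays of all groups shared 1 scan date in the file headers and were taken as 1 slide of 8 arrays. Mixed and control arrays filled separate rows of both slides and the times separate columns, so place on the slide and group cannot be told apart. Whether 1 vessel gave all 4 arrays of a number and kind is not stated, so p-values measure the spread between these arrays.

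Scaling moved the balance of calls over all probes. Of 531 probes called between kinds on average over the 4 times, 37.5% were higher in mixed fermentations, against 55.5% with the median of each array as its scale, 49.1% in the authors' deposited log2 table and 97.2% of 141 calls with spike-in scaling. At 187 h the share was 38.7% of 450 calls, and 60.9%, 49.1% and 87.0% under the same alternatives. Between 92 h and 22 h it was 55.3% of 4041 calls, and 7.16% with spike-in scaling; between 187 h and 22 h it was 50.6% of 4720 calls, and 6.84%. Between 144 h and 92 h it was 41.2%, and 56.9% with median scaling. Between 187 h and 144 h it was 51.3%, and 79.5% with median scaling, 80.8% with spike-in scaling and 64.4% with normexp. Spike-in scaling shifted the median of all probes by -1.72 between 187 h and 22 h and by 0.12 between the kinds on average. The 137 ribosomal protein genes moved with that shift. Relative to all probes their median was -1.84 between 187 h and 22 h and -0.23 between the kinds under either scale. Both scales take the same value off every probe of an array, so these medians could not differ between them. Their agreement is therefore no added support.

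Ribosomal protein mRNAs fell steeply between exponential growth and early stationary phase and went on falling more slowly until decline. Their median level in mixed fermentations was 2.87 and 2.94 at 22 h, 1.64 and 1.57 at 92 h, 1.11 and 1.01 at 144 h, and 0.96 and 0.69 at 187 h. In control fermentations it was 2.78 and 2.93 at 22 h, 1.81 and 2.11 at 92 h, 1.40 and 1.64 at 144 h, and 0.99 and 1.30 at 187 h. The arrays of 22 h stood above all others in both kinds, and from 92 h on every mixed array stood below every control array of its time.

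**Figure D1:**
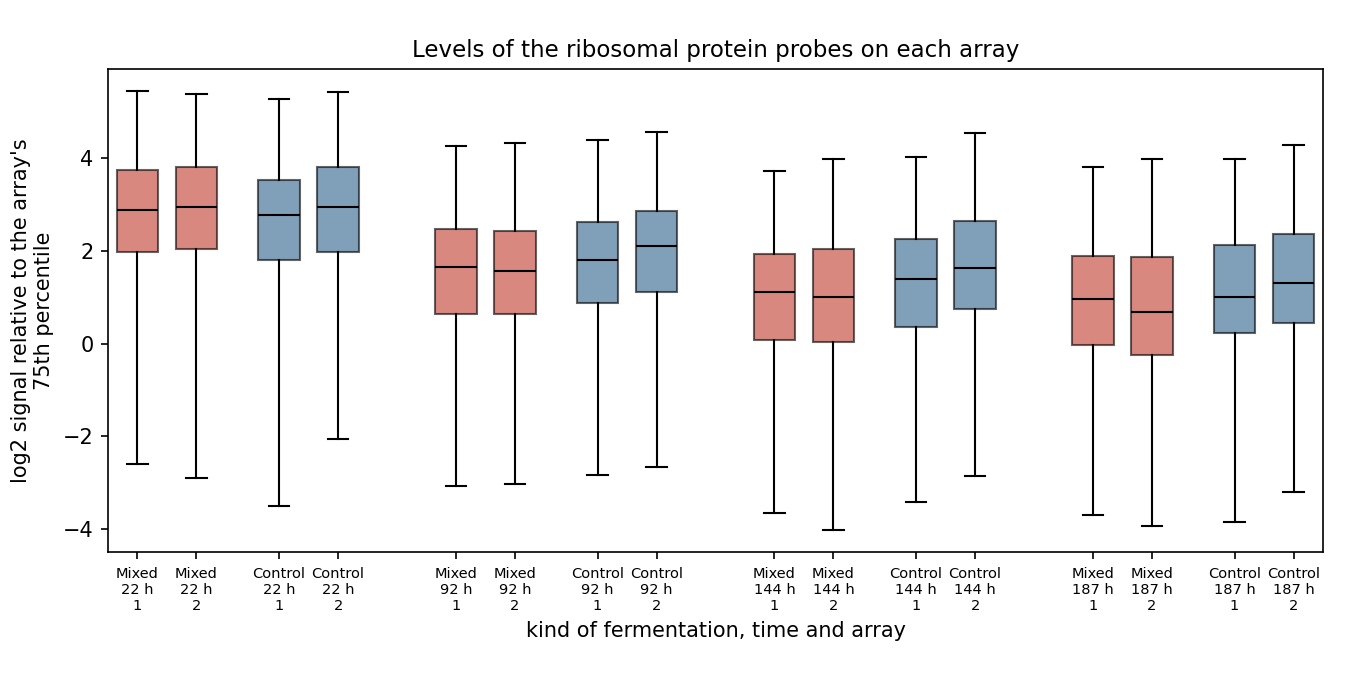
Levels of the 137 ribosomal protein probes on each of the 16 arrays, as log2 signal relative to the array's 75th percentile, with mixed arrays left of the control arrays of the same time. Boxes span the quartiles with the median as a line, and whiskers reach the lowest and highest member. The medians lie between 2.78 and 2.94 at 22 h and between 0.69 and 1.30 at 187 h.

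With both kinds averaged, 131 of the 137 members were lower at 92 h than at 22 h and 0 were higher, with a median of -1.07. Of all probes tested 29.2% were lower and 36.2% higher in that comparison, and their median was 0.07. Between 144 h and 92 h 86 members were lower and 0 higher, with a median of -0.46, against 9.04% and 6.34% of all probes and their median of -0.06. Between 187 h and 144 h 22 members were lower and 0 higher, with a median of -0.26, against 5.51% and 5.81% of all probes and their median of -0.06. Over the whole fermentation, from 22 h to 187 h, 134 members fell and 0 rose. The median was -1.81, and -1.78 and -1.81 on the slides taken singly, while 37.7% of all probes fell, 38.6% rose and their median was 0.04. The fall to 187 h held in 133 to 137 members under every scaling, filter, block and left-out array tried. The 137 was with spike-in scaling, under which most calls over all probes were falls too. The later steps were less firm. The count of 86 was 8 with spike-in scaling and 21 without control array 2 of 92 h, and the count of 22 was 12 with median scaling, 0 with spike-in scaling and 1 without control array 2 of 144 h. The other arrays that moved these counts were, for 144 h minus 92 h, mixed array 1 of 92 h (46 without it), mixed array 1 of 144 h (57), control array 1 of 144 h (29), mixed array 2 of 92 h (41) and mixed array 2 of 144 h (52). For 187 h minus 144 h they were mixed array 1 of 144 h (4), either control array of 92 h (11), control array 1 of 187 h (4), mixed array 2 of 144 h (13) and mixed array 2 of 187 h (6).

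Both kinds of fermentation showed the early step by themselves. In mixed fermentations 130 members were lower at 92 h than at 22 h (23.0% of all probes), with a median of -1.28, and in control fermentations 122 (23.3%), with a median of -0.88. Between 144 h and 92 h 19 members were lower in mixed fermentations (1.65%) and 1 in control fermentations (0.194%), with medians of -0.51 and -0.40. Between 187 h and 144 h limma called 0 members lower in either kind (0.388% of all probes in mixed and 0% in control fermentations), with medians of -0.21 and -0.27. Over the whole span 134 members fell in mixed fermentations (34.7%) and 131 in control fermentations (31.9%), with medians of -2.03 and -1.55.

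Among the largest falls from 22 h to 187 h were those of RPS9B, RPL8B, RPL13A and RPS8B. RPS9B (YBR189W), a copy of the gene for uS4, a 40S protein that binds early to the rRNA and acts in decoding accuracy, measured 3.78 and 3.80 in mixed fermentations at 22 h, 1.62 and 1.53 at 92 h, 0.58 and 0.55 at 144 h, and 0.10 and -0.23 at 187 h. In control fermentations it measured 3.53 and 3.89 at 22 h, 1.70 and 2.13 at 92 h, 0.79 and 1.34 at 144 h, and 0.28 and 0.64 at 187 h. The times did not overlap in either kind. RPS9B was lower at 187 h than at 22 h by 11.7-fold (-3.55 ± 0.15, adjusted p = 5.08e-09, limma).

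RPL8B (YLL045C), for a 60S protein that binds the rRNA in early assembly, fell 9.65-fold (-3.27 ± 0.17, adjusted p = 1.33e-08, limma). Its levels in mixed fermentations were 2.69 and 2.83 at 22 h and -0.38 and -0.84 at 187 h, and in control fermentations 2.84 and 3.07 at 22 h and -0.40 and -0.02 at 187 h. RPL13A fell 8.11-fold (-3.02 ± 0.10) and RPS8B 7.26-fold (-2.86 ± 0.13). RPL13A measured 2.85 and 2.86 in mixed fermentations at 22 h and -0.41 and -0.43 at 187 h, against 2.72 and 2.95 and then -0.05 and 0.19 in control fermentations. Neither kind overlapped between the first and last times for these genes.

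The genes with the largest falls were only in part the same from step to step, and the steps were not tested against each other. At the first step the largest falls were in RPL9A (4.26-fold, -2.09 ± 0.14, adjusted p = 2.94e-07, limma), RPS9B (-2.01), RPS22A (-1.94), RPS18B and RPL15A (-1.73 each). Between 92 h and 144 h they included RPL8A (-1.17, adjusted p = 0.00256, limma), RPS9B (-0.93), RPL8B (-0.92) and RPS8B (-0.85). Between 144 h and 187 h they were in RPL8A (-0.78, adjusted p = 0.0205, limma), RPL8B (-0.77), RPS4A (-0.74), RPS4B (-0.73) and RPL13A (-0.70). RPL8A measured 1.10 and 1.02 in mixed fermentations at 22 h, 0.38 and 0.21 at 92 h, -0.81 and -1.20 at 144 h, and -1.60 and -1.90 at 187 h. In control fermentations RPL8A measured 0.83 and 1.66, then 0.51 and 0.82, -0.40 and -0.34, and -1.19 and -1.20 at the same times. RPL8A was thus called at each of the 3 steps, with -0.68 at the first.

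A few copies did not pass the test. RPL18B, RPS30B and RPL15B were not called between 187 h and 22 h, with differences of -0.04 ± 0.25, -0.11 ± 0.15 and -0.17 ± 0.14 (adjusted p = 0.896, 0.520 and 0.287, limma). RPL15B (YMR121C) measured 0.16 and 0.05 in mixed fermentations at 22 h, 0.09 and 0.31 at 92 h, -0.04 and 0.31 at 144 h, and -0.20 and 0.42 at 187 h. In control fermentations it measured 0.04 and -0.00, then 0.02 and 0.07, -0.01 and -0.30, and -0.33 and -0.32 at the same times. The ranges of all 4 times overlapped in the mixed fermentations. The smallest falls that were called were in RPS14B (-0.52 ± 0.20, adjusted p = 0.0358, limma) and RPL41B (-0.55 ± 0.13, adjusted p = 0.00257, limma). RPS14B was no longer called with quantile normalization (-0.36) or normexp (-0.43). These small changes are relative to the 75th percentile. With spike-in scaling all 137 members were lower at 187 h, and so were most of all probes called.

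By role in the ribosome, the fall from 22 h to 187 h took in nearly every group. Nearly all members fell, against 37.7% of all probes, so the counts by role here and below set no group apart. The mRNAs of all 5 stalk proteins, which recruit the elongation factors to the 60S subunit, fell. RPP0, the base of the stalk, fell by 2.24, RPP2A by 2.65, RPP1B by 2.12, RPP1A by 1.66 and RPP2B by 1.53, with a median of -2.12. RPL3, which lies at the peptidyl transferase centre, fell by 2.23. The mRNAs of the proteins that enter the ribosome with the 5S rRNA fell too, RPL5 by 2.15, RPL11A by 1.96 and RPL11B by 1.53. Of the genes that encode a ribosomal protein fused to ubiquitin, RPS31 fell by 1.17, RPL40A by 1.37 and RPL40B by 1.64.

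All 12 probes for proteins of the wall or the exit of the nascent chain tunnel fell, with a median of -1.96. So did all 6 for proteins that join the 60S late (median -1.66) and all 7 for 40S proteins at the mRNA exit (median -1.71). Of 4 at the mRNA entry, 3 fell (median -1.30), and RPS30B was not called. A list of 10 genes held those whose protein acts on splicing or mRNA stability of its own gene or of the other copy. All 10 fell, with a median of -2.0, against 0.04 for all probes. Among them RPL2A fell by 2.68, RPL2B by 2.57, RPS28B by 2.35, RPL22A by 2.07, RPL30 by 1.93, RPL22B by 1.76, RPS14A by 1.66 and RPS9A by 1.36.

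The 40S and 60S genes had medians close to each other at every step. Between 92 h and 22 h 53 of 56 40S genes and 78 of 81 60S genes were lower, with medians of -1.10 and -1.07. Between 144 h and 92 h 37 and 49 were lower (medians -0.48 and -0.46), and between 187 h and 144 h 9 and 13 (medians -0.27 and -0.25). Over the whole span 55 of 56 and 79 of 81 fell, with medians of -1.76 and -1.84. The median change of the 40S genes minus that of the 60S genes was thus 0.08 between 187 h and 22 h, and with normexp it had the opposite sign (-0.068). Within single arrays, the median level of the 40S genes minus that of the 60S genes lay between 0.09 and 0.21 at 22 h. At 187 h it lay between -0.01 and 0.30. Its standard deviation between arrays of a group was 0.103, which is not a measure of spread for the difference of 0.08.

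The copies of some genes changed by different amounts over the fermentation. The A minus B difference within an array sets 2 probes side by side, so its size has no meaning by itself, but its change between arrays does not depend on the scale of the array. Near-identical copies can also take up each other's label on the array, probe sequences were not used here, and the part of such cross-hybridisation in any difference between copies was not tested. From 22 h to 187 h the A minus B difference changed in 40 of 59 pairs, 16 of 24 pairs of the 40S and 24 of 35 of the 60S, by adjusted p over the 6184 probes and the 59 pairs together. Of all probes in that joint fit 76.3% were called between the same times, so the count of pairs is no result about pairs as a group. In 23 of the 40 pairs the A copy fell more and in 17 the B copy did. The median size of the change was 0.42, 8 pairs changed by over 1 on the log2 scale, and 18 changed by under 0.25.

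In RPS9 the B copy fell more. RPS9A (YPL081W) measured 1.14 and 1.32 in mixed fermentations at 22 h, 1.05 and 0.59 at 92 h, -0.11 and -0.34 at 144 h, and -0.45 and -0.66 at 187 h, against 0.97 and 1.35, then 1.03 and 1.05, 0.31 and 0.53, and 0.26 and 0.18 in control fermentations. It was not called between 92 h and 22 h (-0.27, adjusted p = 0.0897, limma), the step at which RPS9B fell by 2.01. By 187 h RPS9A had fallen by 1.36 and RPS9B by 3.55, and the A minus B difference had changed by 2.19 ± 0.14 (4.57-fold, adjusted p = 6.85e-08, limma), by 2.07 in mixed and 2.32 in control fermentations.

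RPL15A (YLR029C) measured 3.75 and 3.58 in mixed fermentations at 22 h, 1.84 and 1.58 at 92 h, 1.42 and 1.26 at 144 h, and 1.55 and 1.17 at 187 h, against 3.62 and 3.67, then 1.96 and 2.34, 1.83 and 1.72, and 1.52 and 1.52 in control fermentations. With RPL15B not called, the pair's difference changed by -2.05 ± 0.20 (adjusted p = 2.35e-06, limma). RPL15A fell by 2.22 in all, of which 1.73 came by 92 h.

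RPS7A (YOR096W) measured 2.28 and 2.25 in mixed fermentations at 22 h, 0.40 and 0.43 at 92 h, -0.38 and -0.29 at 144 h, and -0.36 and -0.73 at 187 h, against 2.03 and 2.28, then 0.77 and 0.87, 0.07 and 0.22, and -0.18 and -0.19 in control fermentations. RPS7B (YNL096C) measured 2.24 and 2.29, then 1.64 and 1.63, 1.41 and 1.59, and 1.35 and 1.56 in mixed fermentations at those times, against 2.18 and 2.38, then 1.65 and 1.91, 1.65 and 1.64, and 1.76 and 1.61 in control fermentations. RPS7A fell by 2.57 and RPS7B by 0.70, and their difference changed by -1.87 ± 0.12 (adjusted p = 6.58e-08, limma). Both kinds of fermentation showed it, with -2.0 in mixed and -1.74 in control fermentations.

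RPS14A, for a 40S protein at the mRNA exit, measured 2.31 and 2.46 in mixed fermentations at 22 h, 1.34 and 1.43 at 92 h, 0.87 and 0.73 at 144 h, and 0.58 and 0.19 at 187 h, against 2.30 and 2.52, then 1.56 and 1.84, 1.25 and 1.42, and 1.12 and 1.08 in control fermentations. RPS14B (YJL191W) measured 2.12 and 1.78, then 1.81 and 1.33, 1.54 and 0.79, and 1.14 and 0.46 in mixed fermentations at those times, against 1.35 and 1.80, then 2.15 and 2.22, 1.84 and 1.89, and 1.79 and 1.59 in control fermentations. At 187 h RPS14B lay within its 22 h range in control fermentations and below it in mixed ones. The difference between the copies changed by -1.14 ± 0.18 (adjusted p = 9.24e-05, limma), with a fall of 1.66 for RPS14A and of 0.52 for RPS14B.

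**Figure D2:**
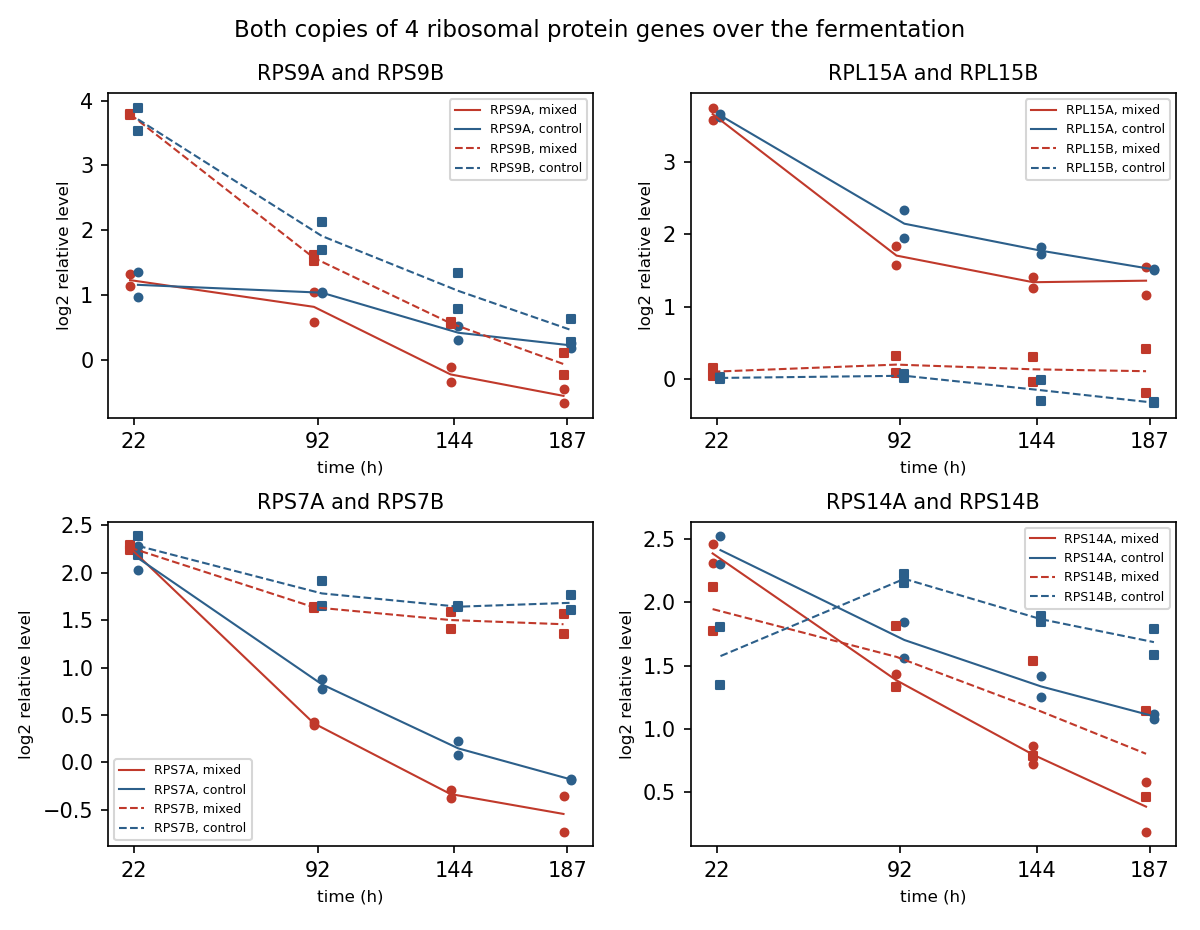
Levels of both copies of RPS9, RPL15, RPS7 and RPS14 at 22, 92, 144 and 187 h, as log2 signal relative to the array's 75th percentile, with a point for each array and a line through each group's mean. In each panel 1 copy fell by 1.66 to 3.55 between 22 h and 187 h, while the other changed by -0.17 to -1.36.

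RPS26 (1.35 ± 0.34, adjusted p = 0.00318, limma), RPP2 (-1.12) and RPL21 (1.06) also changed by over 1. In RPS26 the A copy fell by 1.17 and the B copy by 2.52. The RPS26 change was 0.87, and still called, without control array 1 of 187 h, on which RPS26B was at -0.73, against 1.30 on the other control array. By contrast RPS1A and RPS1B both fell by 2.49, and RPL2A and RPL2B changed by nearly the same amount (-0.11 ± 0.08, adjusted p = 0.239, limma).

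**Figure D3:**
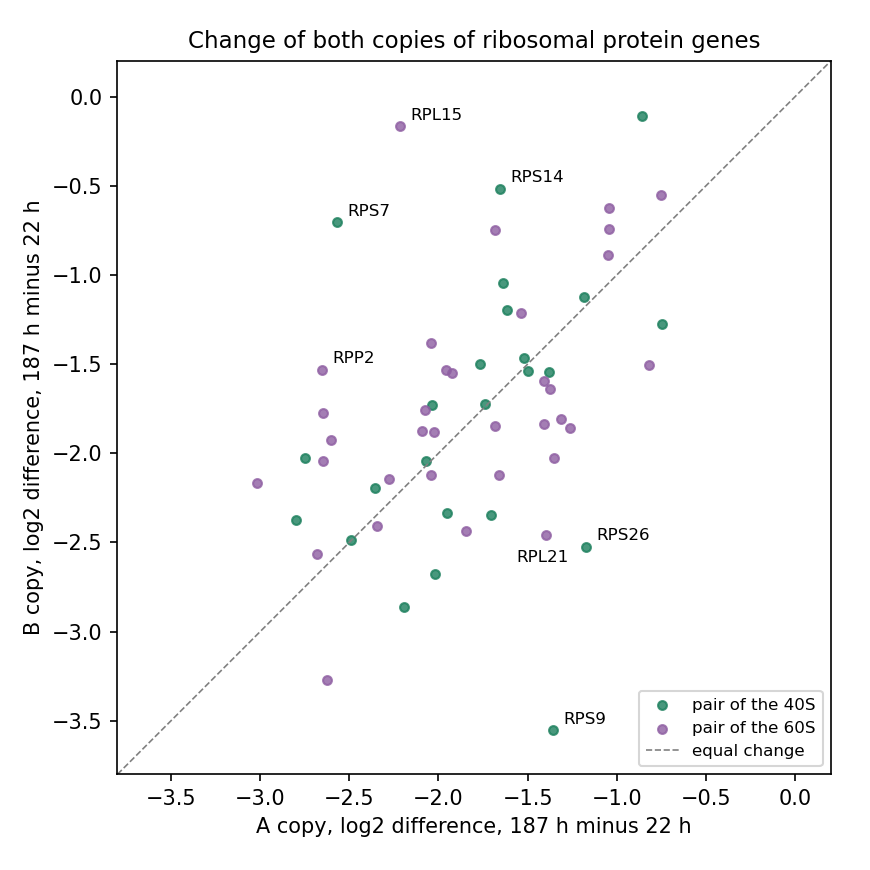
Change of the A copy (horizontal) and of the B copy (vertical) from 22 h to 187 h as log2 differences, with a point for each of the 59 pairs but 1, 40S and 60S in 2 colours, and a diagonal where both copies change alike. The pairs with a name changed apart by over 1, and of these RPL15 and RPS7 lie above the diagonal and RPS9 far below it.

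Between 92 h and 22 h 31 of 59 pairs changed, no larger a share than the 65.4% of all probes in the joint fit, with RPL15 (-1.79 ± 0.20), RPS9 (1.74 ± 0.14), RPL9 (-1.19 ± 0.10) and RPS7 (-1.03 ± 0.12) among the largest. RPS14 (-0.97), RPL8 (0.90) and RPL22 (-0.87) came next. Between 144 h and 92 h only RPS7 (-0.57) and RPS28 (0.38) were called (15.4%). As groups the A and the B copies had the same median change from 22 h to 187 h, -1.77 for each.

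The comparison of kinds asks what the presence of D. bruxellensis beyond the membrane changed in EC1118. At 22 h no ribosomal protein gene passed the test. Limma called 0 of 137 at an adjusted p under 0.05 (0% of all probes), and 0 members had an unadjusted p under 0.05. The median difference, mixed minus control, was 0.05 (slides 0.14 and -0.02), and it was -0.034 with quantile normalization, -0.030 with normexp, -0.045 without control array 1 of 22 h and 0.59 with spike-in scaling. The differences ran from -0.19 for RPL8B to 0.38 for RPL22A.

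From 92 h on the median over the members was lower in mixed fermentations, while single members passed the test at 187 h only. The median difference was -0.34 at 92 h (slides -0.20 and -0.49), -0.46 at 144 h (slides -0.29 and -0.62) and -0.36 at 187 h (slides -0.22 and -0.55), against medians of all probes of -0.01, -0.04 and -0.06. At 92 h and 144 h limma called 0 members (0% of all probes lower at both times, and 0.0162% and 0% higher), while 45 and 92 members had an unadjusted p under 0.05, against 348 and 568 of all probes. At 92 h both mixed arrays lay below both control arrays in 124 of 137 members (22.2% of all probes), at 144 h in 130 (25.8%) and at 187 h in 100 (33.7%). They lay above both controls in 1, 0 and 2 members at these times (20.4%, 15.9% and 21.8% of all probes). At 22 h they lay below both in 2 (21.0%) and above both in 29 (13.2%). The mixed arrays lay below the controls at all 3 later times in 93 members, 39 of the 40S and 54 of the 60S, and in 8.65% of all probes. Among the lowest differences were at 92 h those of RPS14B (-0.62), RPS4A (-0.59), RPL2B (-0.56) and RPS1B (-0.52), and at 144 h those of RPL7A (-0.84), RPL26B (-0.77), RPS4A (-0.77) and RPS8B (-0.72), none of them called. RPL15B (0.15 and 0.29) and RPL9A (0.11 and 0.19) stood at the other end at both times.

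**Figure D4:**
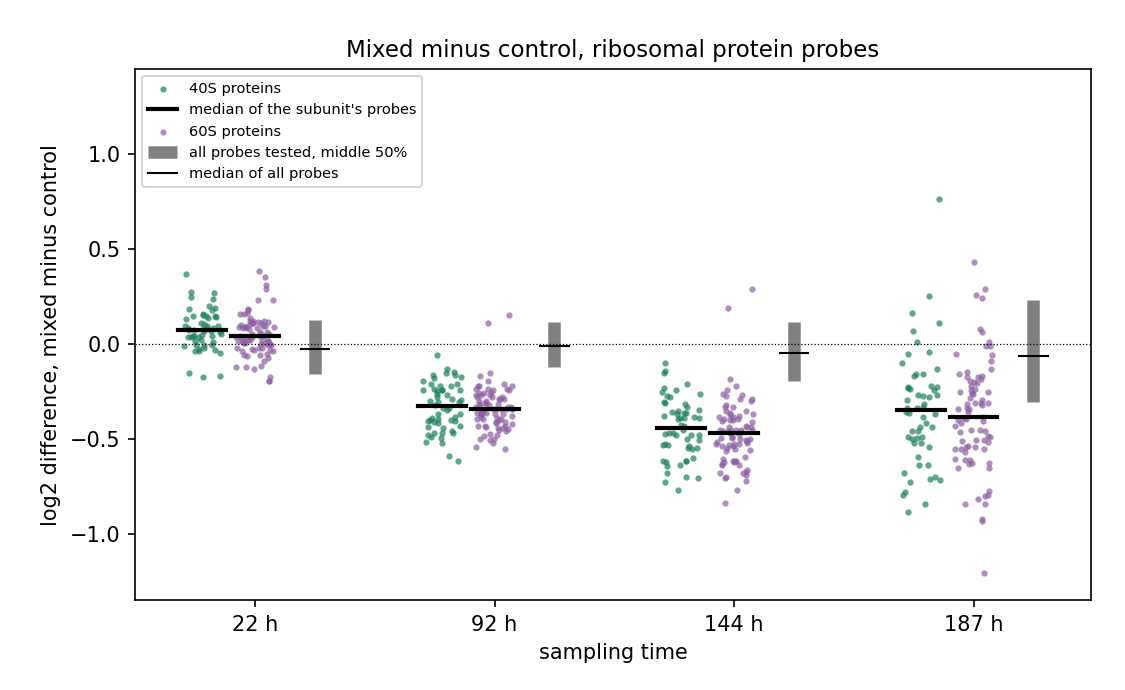
Log2 difference, mixed minus control, of each of the 137 ribosomal protein probes at 22, 92, 144 and 187 h, with 40S and 60S probes in 2 colours, a black bar at the median of each subunit, and in grey the middle 50% of all probes tested with their median. The medians of all members were 0.05 at 22 h, and on -0.34, -0.46 and -0.36 at the later times.

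The change between 22 h and the later times was tested as a difference of differences. Its median over the members was -0.43 (slides -0.38 and -0.50), against -0.02 over all probes. Limma called 0 members and 0 of all probes (0%), with 70 members and 674 of all probes at an unadjusted p under 0.05. For single later times against 22 h limma also called 0, with member medians of -0.39, -0.50 and -0.44 at 92 h, 144 h and 187 h. At these times 20, 58 and 48 members had an unadjusted p under 0.05, against 209, 411 and 1002 of all probes. These comparisons share the 22 h arrays, and the dependence of the difference on time did not pass the threshold.

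Averaged over the 4 times, 54 of 137 members were lower in mixed fermentations and 0 were higher, with a median of -0.27 (slides -0.14 and -0.42). Of all probes 5.37% were lower and 3.22% higher, and their median was -0.03. The difference was negative in 132 members, and in 119 on both slides. It ran from -0.59 for RPS4A to 0.24 for RPL15B. Of 40S genes 18 of 56 were lower (median -0.25) and of 60S genes 36 of 81 (median -0.28), and 23 of 59 A copies and 23 of 59 B copies were. The count was 40 to 72 with median scaling, quantile normalization, normexp and the deposited table, 25 with the vessel as a random block, and 0 with spike-in scaling, where the member median was -0.14 and that of all probes 0.09. It was 84 over the 3 later times and 0 over the 3 earlier ones. It was also between 3 and 67 with 1 array left out, and 3 was without control array 2 of 92 h. It was 10 without control array 2 of 144 h, 13 without mixed array 2 of 144 h, 19 and 20 without mixed arrays 2 and 1 of 92 h, 22 without control array 2 of 22 h, 23 without control array 1 or mixed array 2 of 187 h, 27 and 35 without mixed arrays 1 and 2 of 22 h, and 33 without control array 2 of 187 h.

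RPS4A (YJR145C), for a 40S protein of the body of the subunit, measured 3.06 and 2.99 in mixed fermentations at 22 h, 1.67 and 1.51 at 92 h, 0.84 and 0.50 at 144 h, and 0.19 and -0.42 at 187 h. In control fermentations it measured 3.05 and 3.33, then 2.09 and 2.26, 1.31 and 1.56, and 0.79 and 0.68 at the same times. The kinds did not overlap at any time after 22 h. On average RPS4A was 1.51-fold lower in mixed fermentations (-0.59 ± 0.10, adjusted p = 0.0148, limma), and the slides gave -0.37 and -0.81.

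Also low were RPL4B (-0.53 ± 0.10, adjusted p = 0.0170, limma), RPP2B (-0.52 ± 0.09, adjusted p = 0.0148) and RPP1A (-0.51 ± 0.10, adjusted p = 0.0169). RPL4B, for a protein of the wall of the tunnel, measured 3.63 and 3.89 in mixed fermentations at 22 h, 2.55 and 2.42 at 92 h, 2.63 and 1.95 at 144 h, and 2.00 and 1.72 at 187 h. In control fermentations it measured 3.82 and 3.96, then 2.95 and 3.02, 2.94 and 2.74, and 2.78 and 2.77. The mixed arrays lay below the controls at every later time. RPS4A, RPL4B, RPP2B and RPP1A were not called on the average without 187 h (adjusted p = 0.108 to 0.172, limma) or with spike-in scaling. At the other end RPL15B (0.24), RPL9A (0.16), RPS22A (0.06), RPS26B (0.06) and RPS17B (0.01) were not called.

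By role, 3 of 5 stalk genes were lower on average, RPP2B, RPP1A and RPP0 (-0.38, adjusted p = 0.0217, limma), while RPP1B (-0.24) and RPP2A (-0.20) were not called. RPP0 (YLR340W) measured 3.06 and 2.95 in mixed against 3.38 and 3.59 in control fermentations at 92 h, 2.51 and 2.49 against 2.89 and 3.11 at 144 h, and 2.10 and 1.94 against 2.76 and 2.53 at 187 h. RPP2B (YDR382W) measured 2.84 and 2.90 against 3.18 and 3.43 at 92 h, 2.42 and 2.36 against 2.88 and 3.30 at 144 h, and 2.43 and 2.02 against 2.95 and 3.12 at 187 h. Neither gene's kinds overlapped at these times. At 22 h RPP0 measured 4.75 and 4.52 in mixed and 4.38 and 4.66 in control fermentations, and there the kinds overlapped.

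Of the other groups, 7 of 10 genes listed for control of their own gene or its other copy were lower (median -0.40). The 3 not called by limma were RPS14B (-0.46, adjusted p = 0.0693), RPS9B (-0.32, adjusted p = 0.0852) and RPL22A (-0.07). RPL30, whose protein binds and blocks the splicing of its own pre-mRNA, was lower by 0.47 ± 0.08 (adjusted p = 0.0154, limma), and RPL22B by 0.50, RPL2A by 0.41, RPL2B and RPS14A by 0.40, RPS9A by 0.39 and RPS28B by 0.37. RPL3 was lower by 0.45. Of the 5S RNP genes RPL11A was called (-0.35), and RPL5 (-0.32, adjusted p = 0.0759) and RPL11B (-0.28, adjusted p = 0.0815) were not. Of the ubiquitin fusion genes RPL40B was called (-0.33), and RPL40A (-0.22) and RPS31 (-0.14) were not. Of the genes for tunnel proteins 5 of 12 were lower, and of those for late joining 60S proteins 4 of 6. Of the genes for mRNA entry proteins 1 of 4 were lower, for mRNA exit proteins 2 of 7, and of the single-copy genes 8 of 19. These shares stand beside 5.37% of all probes and 54 of all 137 members.

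At 187 h alone 24 members were lower in mixed fermentations and 0 were higher, 9 of the 40S and 15 of the 60S, against 4.46% and 2.81% of all probes. RPL22B (YFL034C-A), the second copy of the gene for eL22, measured -2.48 and -2.98 in mixed and -1.49 and -1.56 in control fermentations, 2.30-fold lower (-1.20 ± 0.19, adjusted p = 0.0263, limma). At 22 h it had measured -0.50 and -0.15 in mixed and -0.44 and -0.40 in control fermentations. RPL30 (YGL030W) measured 1.65 and 1.46 in mixed and 2.39 and 2.58 in control fermentations at 187 h, 1.91-fold lower (-0.93 ± 0.17, adjusted p = 0.0263, limma). The kinds were clear of each other in both genes.

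RPL4B (-0.92), RPL43B (-0.84), RPS4A (-0.84), RPP1A (-0.84), RPP2B (-0.82), RPS9A (-0.78), RPS14A (-0.71) and RPP0 (-0.62) were also called at 187 h. RPS14B (-0.88) was not (adjusted p = 0.0763, limma). RPS14B measured 1.14 and 0.46 in mixed and 1.79 and 1.59 in control fermentations, so its mixed arrays differed by nearly as much as the kinds. RPP1A (YDL081C) measured -0.26 and -0.38 in mixed and 0.45 and 0.59 in control fermentations.

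The probes at the upper end at 187 h, RPS26B (0.76 ± 0.46), RPL15B (0.43), RPL34B (0.29), RPL6B (0.26) and RPS22A (0.25), were not called. For RPS26B the slides gave 1.92 and -0.39 and for RPL34B 1.28 and -0.70. Control array 1 stood low for them, at -0.73 and 0.68, against 1.30 and 2.28 on control array 2. The slides also differed in sign for RPS22A (0.80 and -0.29) and RPL6B (0.60 and -0.08), but not for RPL15B (0.13 and 0.74). The count of 24 was 12 with median scaling, 0 with spike-in scaling and 0 where only the 187 h arrays were fitted. It was also 0 without control array 1 or mixed array 2 of 187 h or either control array of 92 h, 4 without control array 2 of 187 h, 8 without either mixed array of 92 h and 15 without either mixed array of 144 h. Without mixed array 1 of 187 h 1 member was higher, and without control array 2 of 187 h 2 were.

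In a few pairs the copies differed between the kinds by different amounts, and the count of such pairs is no result about pairs as a group. On average over the 4 times the A minus B difference was called between kinds in 4 of 59 pairs (8.62% of all probes in the joint fit), so the share is near that background. In RPL9, RPS22 and RPS28 the B copy was lower in mixed fermentations while the A copy was not called, and in RPP1 it was the A copy that was lower.

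RPL9A minus RPL9B was -0.32 and -0.50 in mixed against -0.55 and -0.41 in control fermentations at 22 h, and -1.47 and -1.40 against -1.99 and -1.69 at 92 h. It was -1.19 and -0.97 against -1.76 and -1.85 at 144 h, and -0.94 and -0.83 against -1.84 and -1.68 at 187 h. The kinds overlapped at 22 h and were apart at every later time. The difference between kinds was 0.52 ± 0.07 on average (adjusted p = 0.00808, limma) and 0.88 ± 0.14 at 187 h (adjusted p = 0.0252, limma). RPL9B (YNL067W) was lower on average by 0.35 (adjusted p = 0.0311, limma), and RPL9A (YGL147C) was not called at 0.16.

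RPS22A minus RPS22B was 1.02 and 1.06 in mixed against 0.57 and 0.83 in control fermentations at 92 h, 1.22 and 1.21 against 0.68 and 0.74 at 144 h, and 1.51 and 1.51 against 0.24 and 0.69 at 187 h. At 22 h it was 1.93 and 1.46 against 1.68 and 1.78, and only there did the kinds overlap. The difference was 0.47 ± 0.09 on average (adjusted p = 0.0170, limma) and 1.05 ± 0.18 at 187 h (adjusted p = 0.0252, limma). RPS22B (YLR367W) was lower by 0.40 on average (adjusted p = 0.0357, limma) and RPS22A (YJL190C) measured a difference of 0.06.

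RPS28A minus RPS28B was 2.76 and 3.0 in mixed against 2.54 and 2.41 in control fermentations at 187 h, and 2.33 and 1.84 against 1.92 and 2.05 at 22 h, with an average difference of 0.32 ± 0.08 (adjusted p = 0.0337, limma). RPP1A minus RPP1B was -0.20 and -0.17 against 0.57 and 0.27 at 187 h, and -0.44 and -0.35 against -0.21 and -0.39 at 22 h, with an average difference of -0.28 ± 0.07 (adjusted p = 0.0324, limma). Both pairs were apart at 187 h and overlapped at 22 h. The RPS28 and RPP1 calls ended with the vessel as a random block (adjusted p = 0.0628 and 0.0606), with normexp, and without most single arrays. RPL9 and RPS22 were called on average without each array in turn, with differences of 0.48 to 0.55 and of 0.41 to 0.52.

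At 187 h alone 4 of 59 pairs were called (7.39% of all probes in the joint fit), so this share too is near the background. The pairs were RPS22, RPL9, RPP1 (-0.60) and RPP2 (0.89, adjusted p = 0.0485, limma). The count was 0 without control array 1 or mixed array 2 of 187 h, 2 without either control array of 92 h, and 9 without control array 2 of 187 h. The RPP2 difference was 0.42 (not called) without control array 1 of 187 h, on which RPP2A was at -0.39, against 0.74 on the other. RPL22A minus RPL22B had the largest difference at 187 h (1.20) and was not called (adjusted p = 0.0647, limma). At 22 h, 92 h and 144 h limma called 0 pairs (0%, 0.0162% and 0% of all probes), with 1, 1 and 5 at an unadjusted p under 0.05.

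**Figure D5:**
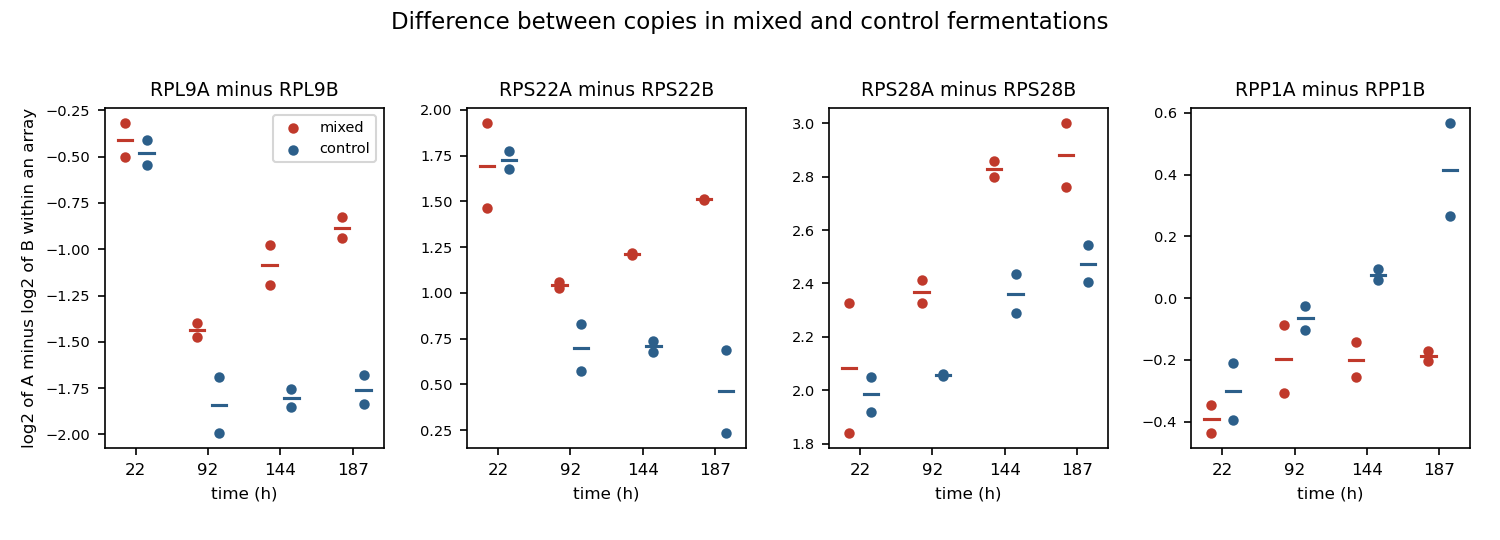
Log2 signal of the A copy minus that of the B copy within each array, for RPL9, RPS22, RPS28 and RPP1 at 22, 92, 144 and 187 h, with a point for each array and mixed arrays left of controls. For RPL9 and RPS22 the mixed arrays lie above the controls at 92, 144 and 187 h, and for RPP1 they lie below them at 187 h.

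Genes that make, regulate or use ribosomes were set beside the members, from lists described by their counts. Of 13 transcriptional regulators of ribosomal protein genes 8 were higher and 1 lower at 187 h than at 22 h (38.6% and 37.7% of all probes), with a median of 0.46, and with spike-in scaling 0 were higher and 11 lower, with a median of -1.27. The rises given next turn negative with that scaling. CRF1, a corepressor of these genes under TOR, rose by 1.66, DOT6 by 1.29, TOD6 by 1.05 and STB3 by 0.88, all known repressors of ribosome genes, and IFH1, the coactivator, by 0.70. CRF1 measured -2.35 and -2.18 in mixed and -2.57 and -2.88 in control fermentations at 22 h, and -0.33 and 0.22 against -0.64 and -0.73 at 92 h. HMO1, which binds many of these promoters, fell by 0.37, and RAP1 was not called at -0.25.

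Between kinds CRF1 was higher in mixed fermentations on average (0.47 ± 0.10, adjusted p = 0.0238, limma), the 1 regulator called (3.22% of all probes higher). At 187 h DOT6 (0.53 ± 0.13, adjusted p = 0.0415), STB3 (0.77 ± 0.19, adjusted p = 0.0400) and REB1 (0.57 ± 0.14, adjusted p = 0.0374) were higher by the same test (2.81% of all probes). STB3 measured 0.14 and 0.39 in mixed and -0.61 and -0.40 in control fermentations there. With spike-in scaling the differences were 0.59 for CRF1 on average and 0.52, 0.75 and 0.56 for DOT6, STB3 and REB1 at 187 h. None of these was called. That scaling moves every probe of a comparison by the same small amount, so differences of this size could not turn.

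The ribosome bound factors had the lowest median of these lists over time. All 9 tested fell from 22 h to 187 h (37.7% of all probes), with a median of -2.17, led by the nascent chain chaperones SSB1 and SSB2 (-2.89 each), EGD1 (-2.38), the ribosome preservation factor STM1 (-2.30) and ASC1 (-2.17), a protein of the 40S head. SSB2 measured 3.04 and 3.16 in mixed and 3.05 and 3.20 in control fermentations at 22 h, and -0.15 and -0.65 against 0.91 and 0.74 at 187 h. SSB1 (-0.70 ± 0.11, adjusted p = 0.0134), SSB2 (-0.70 ± 0.10, adjusted p = 0.00847) and STM1 (-0.44 ± 0.08, adjusted p = 0.0154) were lower in mixed fermentations on average by limma, 3 of 9 in the list (5.37% of all probes).

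Of 11 elongation factors 10 fell from 22 h to 187 h (median -1.17, against 37.7% of all probes and their median of 0.04), TEF4 by 2.47, ANB1 by 2.27 and EFT1 by 1.95. HEF3, the second gene for elongation factor 3, rose by 2.90 ± 0.19 (adjusted p = 7.20e-08, limma) and was the 1 member of the list that rose, also with spike-in scaling. On average EFT1 (-0.43), TEF1 (-0.40), TEF2 (-0.38), EFT2 (-0.34) and YEF3 (-0.28) were lower in mixed fermentations, 5 of 11 (5.37% of all probes). Of 20 initiation factors 19 fell over time (median -1.0) and 0 were called between kinds on average. At 187 h SUI2 was higher in mixed fermentations (0.88, adjusted p = 0.0374, limma) and CDC33, the cap binding protein, lower (-0.50, adjusted p = 0.0454). None of the calls between kinds in these lists was made with spike-in scaling. Each kept its direction there, but that scaling moves every probe of a comparison alike and by little here. The kept directions are therefore no added support.

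Of 25 ribosome biogenesis factors 19 fell and 2 rose over time (median -1.03, against 37.7% and 38.6% of all probes), with NOP58 (-2.59), NSR1 (-2.33) and NOP56 (-2.11) in front. NOP7 (0.70) and NUG1 (0.40) were the 2 higher, and with spike-in scaling all 25 were lower. NOP56 (-0.36) and RRP5 (-0.38) were lower in mixed fermentations on average (5.37% of all probes). Of 9 dedicated chaperones of ribosomal proteins 7 fell and YAR1 rose (0.92), and with spike-in scaling all 9 were lower; RRB1, the chaperone of RPL3, fell by 1.64, ACL4, that of RPL4, by 1.44 and TSR2, that of RPS26, by 1.10. Of 9 RNA polymerase I subunits 8 fell, with a median of -1.20, and 0 of the chaperones or polymerase subunits were called between kinds on average.

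As a description across the 8 group means, 120 of 137 members correlated with the member median at a Pearson r over 0.95, with a median r of 0.990. Only RPL15B (0.139) and RPL18B (0.392) were under 0.5. Outside the members 733 of 6047 probes were over 0.95, and the median r was -0.134. The 5 most alike were NEW1 (0.999), a relative of elongation factor 3, YGR026W (0.998), TMA20 (0.998), a ribosome associated factor that acts in recycling, ERV29 (0.998), a cargo receptor of the secretory pathway, and GRS1 (0.998), the glycyl-tRNA synthetase. The 8 means share arrays with every comparison above.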

How the data were processed

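Each of the 16 arrays came with scanner output from Feature Extraction 10.7.3.1, per the file headers, with processed and raw intensity per spot as the authors deposited them, together with a deposited log2 value table of the same arrays. The main values were log2 of the processed intensity, averaged over the 2 spots of a probe, minus the log2 75th percentile of each array. Of 12512 gene spots 50 outliers were left out and 0 were saturated, and 72 dim probes, not well above background on at least 2 arrays, were not tested. Symbols came from RefSeq locus tags (5756 probe IDs matched, 500 not). Limma 3.58.1 in R 4.3.3 fitted 8 group means over all arrays, with the A minus B differences of the 59 pairs joined to the probes as further rows of a second fit. Scripts were tested on simulated data. The members, the gene lists and the tests were chosen with earlier results of these data known. The genes named were the 5 highest and 5 lowest members of each comparison, the 8 pairs that changed most, all members of the small role groups and of the self control group, RPL3, up to 3 genes per direction of each other list by p, and the 5 probes most like the member median; others named were chosen after their values were seen. The precision is limited by 2 arrays a group. Alternatives were the scale of each array (median, quantile, 7 of 10 spike-in probes, the 75th percentile of the other probes), normexp with an offset of 50, the deposited log2 table, the filter, a replicate or vessel block, another variance model, and single arrays or times left out. Vessel blocking used duplicateCorrelation. A gene of the set is counted but not reported here by name.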

Additional observations from a re-analysis of the deposited data

How the results depend on the processing

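No ribosomal protein gene or pair named as called turned its direction under any alternative. With spike-in scaling the rises over time of the regulators, of NOP7 and NUG1 and of YAR1 became negative, as given beside them. Of the results on the members those that turned are the median at 22 h, which was -0.034 with quantile normalization, -0.030 with normexp and -0.045 without control array 1 of 22 h, and the 40S minus 60S median between 187 h and 22 h (-0.068 with normexp). Spike-in scaling, whose scale rests on 7 probes, gave 0 members lower on average, 0 at 187 h, 8 between 144 h and 92 h and 0 between 187 h and 144 h, and medians of 0.59 at 22 h, -2.24, -0.76, -0.53 and -3.53 for 92 h minus 22 h, 144 h minus 92 h, 187 h minus 144 h and 187 h minus 22 h, and -0.98 for the later times against 22 h. Median scaling gave 12 lower members at 187 h and 12 between 187 h and 144 h, with 1 higher, as normexp and the vessel block also gave (1 each). Quantile normalization and normexp gave medians of -0.92 and -0.92 for 92 h minus 22 h and of -1.63 and -1.60 for 187 h minus 22 h. The vessel as a random block, with an estimated correlation of 0.0661, gave 25 members and 2 pairs on average. The average without 187 h gave 0 and that without 22 h 84, and the 187 h arrays alone gave 0, with fewer arrays to estimate the spread. The cause of these changes was otherwise not tested. The average without a time and the scale from the other probes were chosen after seeing the data.

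With single arrays left out, the count lower on average ran from 3 to 67 (higher 0 to 1, median -0.31 to -0.23), the count at 187 h from 0 to 29 (higher 0 to 2, median -0.49 to -0.29), and the medians at 22 h, 92 h and 144 h from -0.05 to 0.16, -0.47 to -0.21 and -0.61 to -0.32. For 92 h minus 22 h the count ran from 129 to 132 (higher 0 to 1, median -1.15 to -1.01), for 144 h minus 92 h from 21 to 98 (median -0.54 to -0.39), for 187 h minus 144 h from 1 to 27 (median -0.33 to -0.17) and for 187 h minus 22 h from 133 to 135 (median -1.85 to -1.74). The 40S minus 60S median ran from 0.03 to 0.11 over time and from 0.01 to 0.04 between kinds, the later times against 22 h from -0.55 to -0.34, and the pairs called from 37 to 44 over time, from 2 to 10 between kinds on average and from 0 to 9 at 187 h. The single arrays behind these ranges are named beside the counts in the results, and for the pairs between kinds on average the count was 10 without mixed array 1 of 187 h and 2 without any of mixed array 1 or 2 of 92 h, control array 1 or 2 of 92 h, control array 1 or mixed array 2 of 187 h, mixed array 1 of 22 h, mixed array 2 of 144 h or control array 2 of 144 h.

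The replicate numbers are also the slides, as taken from the scan date. Deviations of same-numbered arrays correlated between -0.47 and 0.49 over the 28 pairs of groups, with a median of 0.08 and 13 over 0.1, so the numbers were not taken as pairs. With the replicate number as a replicate block 62 members were lower on average (54 without it), 29 at 187 h, 131, 99, 27 and 134 over the 4 comparisons of times in the order above, and 40, 5 and 4 pairs, while the medians stayed as they were (-0.27 on average). All members were well above background on all arrays, and each group held 2 arrays.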
